A study of Mus musculus with 15 samples.

Results

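The genes described here are 10 genes of the RANKL axis and of the osteoclast, the cell that resorbs bone. They are Tnfsf11 (RANKL), Tnfrsf11b (osteoprotegerin, OPG), Tnfrsf11a (RANK), Nfatc1, Dcstamp, Ocstamp, Atp6v0d2, Acp5, Ctsk and Mmp9. They were taken by symbol from a table of 56832 genes. The rule used no measured value, but the 10 genes were chosen with earlier results of these data known. All 10 were among the 18263 genes that passed the filter on low counts and were tested.

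Bulk RNA was sequenced from cultured mesenchymal stromal cells (MSCs) of the long bones of 16 week old mice, to compare the cells with and without the taurine transporter TauT, which the gene Slc6a6 encodes. The mice were TauT WT (TauT+/+) or TauT KO (TauT-/-, KO in the plots as TauT+/+ is WT) on a C57BL/6J background, and the knockout was global, so every cell type of these mice lacked the gene. The adherent cells were grown without ascorbic acid, which osteogenic induction would add, and were depleted of cells carrying CD45 (blood cells), Ter119 (red cells) and CD31 (endothelium). There were 15 libraries, of which 4 were TauT+/+ male, 3 TauT+/+ female, 4 TauT-/- male and 4 TauT-/- female. No label says that the libraries came from separate animals, so a p-value here measures the spread between libraries.

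The libraries differed in ways that bear on these genes. The male-labelled libraries held 69764291 to 101575070 counts and the female-labelled ones 12761107 to 20781070, so depth and labelled sex cannot be told apart. The number 1 libraries of the male and female labels were the most alike of all pairs, in TauT+/+ as in TauT-/-. They still differed by more than counting error (0.128 against 0.0708 on the log2 scale in TauT+/+, and 0.116 against 0.0676 in TauT-/-). The next closest pair lay at 0.289. Counting error does not cover library preparation, so this comparison cannot tell separate samples from repeated libraries of 1 sample. All 4 were kept. Genes of the sex chromosomes went against the label in 3 libraries, TauT+/+ male 1, TauT-/- male 1 and TauT+/+ female 3. By these genes both male number 1 libraries thus read as female, as did the female number 1 libraries they were most like. Slc6a6 itself lay at 586 to 2655 CPM (counts scaled to the size of the library) in TauT+/+ and 392 to 1571 CPM in TauT-/- libraries, so the genotypes overlapped and groups are named by their labels. Which exons the knockout removes is not given in the sources used here, so a count over the whole gene need not show the deletion. CPM values here are scaled by TMM, a library normalization that assumes that most genes do not differ.

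As background, RANKL is made by stromal cells, osteoblasts and osteocytes, and binds RANK on myeloid precursors of the macrophage lineage. OPG, secreted by the same stromal cells, is a decoy receptor that keeps RANKL from RANK. RANK signals through TRAF6 to NF-kB and Fos and, with co-stimulation through ITAM adaptors, turns on NFATc1, the master regulator that switches on genes of cell fusion, acid secretion and matrix breakdown.

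By level per kilobase of annotated exon, OPG and cathepsin K came first. The median over the 15 libraries, in CPM per kilobase of exon, was 29.3 for Tnfrsf11b, 28.6 for Ctsk, 15.9 for Mmp9, 6.62 for Nfatc1, 4.88 for Tnfsf11 and 3.0 for Tnfrsf11a. Atp6v0d2 followed at 1.11, Acp5 at 1.02, Dcstamp at 0.0653 and Ocstamp at 0.00787. Several neighbours in this order were not apart in every library: Tnfrsf11b was above Ctsk in 10 of 15 libraries, Ctsk above Mmp9 in 8, and Atp6v0d2 above Acp5 in 7. Acp5 was above Dcstamp in 15 of 15.

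No gene of the 10 passed the test of genotype. By edgeR's quasi-likelihood test with labelled sex in the model, 0 of 10 had a Benjamini-Hochberg adjusted p under 0.05 over all genes, while 211 of 18263 genes did (1.16%). DESeq2 on the same model also called 0 of 10, against 2096 genes (11.5%), and voom with sample quality weights called 0 of 10, against 1194 genes (6.54%). At an unadjusted edgeR p under 0.05 there were 2 of the 10 lower in TauT-/-, Tnfsf11 and Tnfrsf11b, and 0 higher, against 11.8% of all genes lower and 11.8% higher. In 0 of the 10 did the genotypes separate without overlap, as they did in 204 of all genes (1.12%). The median log2 difference of the 10 was 0.07, beside 0.00 over all genes, with 5 above 0 and 5 below. The unadjusted counts changed with the libraries used. Without the number 1 libraries of the male label, 0 were lower and 1 higher of 9 tested, against 11.3% and 12.1% of all genes. Without those of the female label, 0 were lower and 0 higher, against 9.88% and 10.2%. Without the 3 libraries against their sex label, 1 was lower and 1 higher, against 9.12% and 9.73%.

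**Figure D1:**
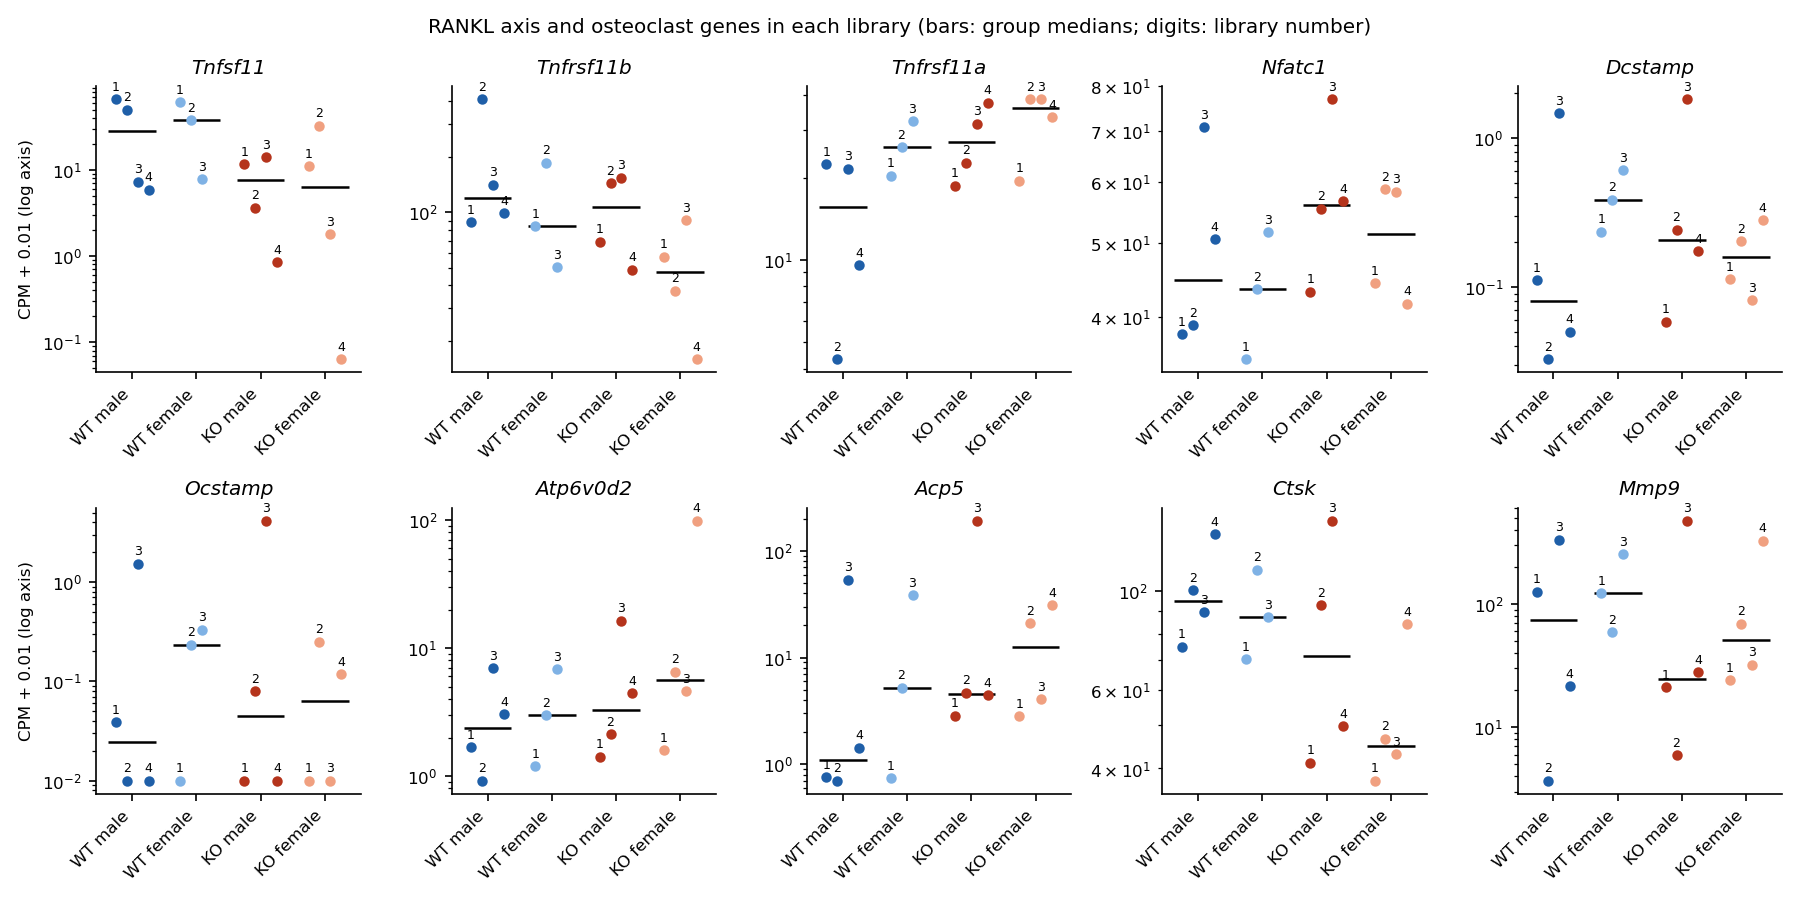
CPM of each gene (vertical log axis, with 0.01 CPM added so that a value of 0 can be drawn) in each library, by genotype and labelled sex; each point is a library, its digit the library number, and each bar the group median. TauT-/- male 3 and TauT+/+ male 3 stand above the other libraries of their groups for Dcstamp, Ocstamp and Acp5, and the genotypes overlap for all 10 genes.

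Tnfsf11 encodes RANKL, the ligand that osteoclast formation requires. The gene lies at chr14:78514885-78545490 on the minus strand (GRCm39). The TauT+/+ male libraries 1 to 4 held 66.4, 49.8, 7.27 and 5.89 CPM, and TauT+/+ female 1 to 3 held 61.6, 38.1 and 7.76 CPM. The TauT-/- male libraries 1 to 4 held 11.6, 3.65, 14.0 and 0.839 CPM, and TauT-/- female 1 to 4 held 11.0, 32.4, 1.78 and 0.0538 CPM, the last from 1 count. The TauT+/+ libraries thus split into 4 high and 3 low ones, the 3 low ones lay among the TauT-/- libraries, and all 8 TauT-/- libraries lay below the TauT+/+ median of 38.0 CPM. TauT+/+ male 1 and female 1, both among the high ones, were the most alike TauT+/+ libraries and may not be separate samples.

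The mean of Tnfsf11 was 33.8 ± 26.7 CPM in TauT+/+ (SD, n = 7) and 9.42 ± 10.8 CPM in TauT-/- (SD, n = 8). The log2 difference was -1.90 (SE 0.89), a fold of 3.73, with an edgeR unadjusted p of 0.0497 and adjusted p of 0.211, so it did not pass the test. DESeq2 gave -1.90 with an adjusted p of 0.113. With number 1 of the male label left out in each genotype the difference was -1.72, with number 1 of the female label left out -1.71, and with the 3 libraries whose sex genes went against the label left out -1.94. The edgeR adjusted p was 0.308, 0.378 and 0.315 in those fits.

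Tnfrsf11b encodes OPG and lies at chr15:54114015-54142075 on the minus strand (GRCm39). In the TauT+/+ male libraries 1 to 4 it held 88.4, 412, 141 and 98.4 CPM, and in TauT+/+ female 1 to 3 it held 84.2, 186 and 50.3 CPM. In the TauT-/- male libraries 1 to 4 it held 69.0, 143, 154 and 48.7 CPM, and in TauT-/- female 1 to 4 it held 57.3, 37.4, 90.6 and 15.9 CPM. TauT+/+ male 2 was the highest and TauT-/- female 4 the lowest, and between them the genotypes overlapped.

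The means of Tnfrsf11b were 151 ± 123 CPM in TauT+/+ (SD, n = 7) and 77.0 ± 49.4 CPM in TauT-/- (SD, n = 8). The log2 difference was -0.95 (SE 0.44), with an edgeR unadjusted p of 0.0474 and an adjusted p of 0.207. It was -1.01 in each set of 13 libraries that left out the number 1 libraries of a sex label, and -1.16 without the 3 libraries against their sex label. Leaving out TauT+/+ male 2, or any other library, left the sign of this difference as it was, from -1.14 to -0.63, and left that of Tnfsf11 as it was, from -2.50 to -1.57.

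The balance of decoy and ligand varied widely within each genotype. In the TauT+/+ male libraries 1 to 4 OPG was 1.33, 8.20, 18.2 and 15.5 times RANKL, as a ratio of CPM with 0.5 added to each, and in TauT+/+ female 1 to 3 it was 1.36, 4.84 and 6.15 times RANKL. In the TauT-/- male libraries 1 to 4 it was 5.74, 34.7, 10.6 and 36.7 times RANKL, and in TauT-/- female 1 to 4 it was 5.04, 1.15, 40.0 and 29.6 times RANKL. The 4 highest values were TauT-/- libraries, but TauT-/- female 2 held the lowest of all. The log2 ratio of Tnfsf11 to Tnfrsf11b was -2.42 ± 1.52 in TauT+/+ (SD, n = 7) and -3.62 ± 1.84 in TauT-/- (SD, n = 8), a difference of -1.21 that did not pass an exact two-sided permutation test over 2450 splits within the sex labels (p = 0.189). Within the male-labelled libraries the difference was -1.17 (exact p = 0.371 over 70 splits) and within the female-labelled ones -1.41 (exact p = 0.429 over 35 splits). Of the fits that left out 1 library, the largest difference was -1.70, without TauT-/- female 2 (exact permutation p = 0.0543). The smallest was -0.87, without TauT+/+ male 1 (exact permutation p = 0.313). Apart from the fit without TauT-/- female 2, the exact permutation p of these fits ran from 0.132 to 0.354.

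**Figure D2:**
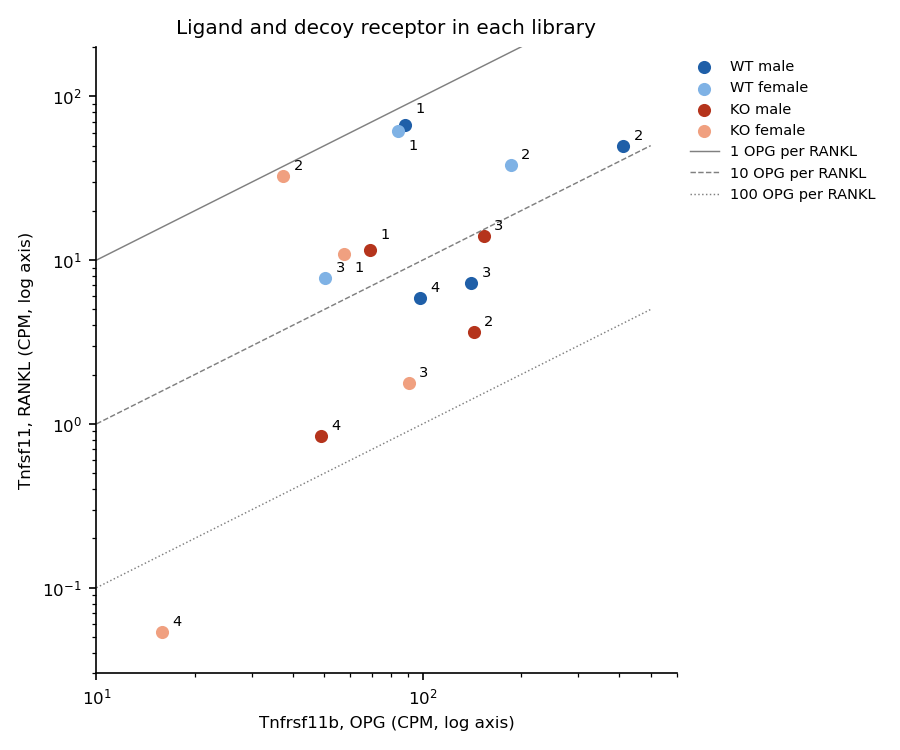
Tnfsf11 (RANKL, vertical log axis, CPM) against Tnfrsf11b (OPG, horizontal log axis, CPM) in each of the 15 libraries, with the library number beside each point and grey lines where OPG is 1, 10 and 100 times RANKL. The TauT+/+ male 1 and female 1 libraries and TauT-/- female 2 lie nearest to the line of equal levels, and TauT-/- female 4 is lowest on both axes.

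Tnfrsf11a encodes RANK, the receptor on osteoclast precursors, and lies at chr1:105708358-105777170 on the plus strand (GRCm39). It ran from 4.33 to 32.2 CPM in TauT+/+ (median 21.6) and from 18.7 to 38.8 CPM in TauT-/- (median 32.4). The lowest values were those of TauT+/+ male 2 and male 4, at 4.33 and 9.54 CPM, and the other TauT+/+ libraries lay within the TauT-/- range. Tnfrsf11a had a log2 difference of 0.65 (SE 0.31, edgeR unadjusted p = 0.0568, adjusted p = 0.225). TauT+/+ male 2 also held the lowest summed level of 13 macrophage markers (1151 CPM) and male 4 the next lowest (4602 CPM). With the mean log2 CPM of those markers as a covariate the difference was -0.07. Without the covariate it ran from 0.43 to 0.76 when single libraries were left out. The summed marker level itself differed between the genotypes, with medians of 6520 CPM in TauT+/+ and 13017 CPM in TauT-/-. What part macrophages had in the Tnfrsf11a value was not tested beyond that fit.

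Nfatc1, the transcription factor that RANK signalling induces and that many other cells also express, was the steadiest of the 10 genes. It ran from 35.3 to 70.7 CPM in TauT+/+ (median 43.5) and from 41.7 to 77.0 CPM in TauT-/- (median 56.0). Its coefficient of variation over the 15 libraries was 23.7%, beside a median of 39.1% for all genes tested. The 2 highest libraries were TauT-/- male 3 and TauT+/+ male 3, so the top of the range was shared between genotypes. Its log2 difference was 0.23 (SE 0.16, edgeR adjusted p = 0.415).

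The promoters of RANKL and of NFATc1's best known resorption targets are shown here because Tnfsf11, Acp5 and Ctsk stand at the head and the end of this pathway. The windows come from RefSeq on GRCm38.p6, a different build from that of the counts, and hold 250 bases before and 50 after an annotated start. Of the 10 genes, 4 had a window in that table (Tnfsf11, Tnfrsf11a, Acp5 with 3 starts, and Ctsk), 6 windows in all. Each window is read 5′ to 3′ on the gene's strand, and capitals mark matches on either strand to the NFAT core GGAAA and the M-box TCANGTG of the MITF family.
Tnfsf11 (chr14:78307994-78308293, minus strand): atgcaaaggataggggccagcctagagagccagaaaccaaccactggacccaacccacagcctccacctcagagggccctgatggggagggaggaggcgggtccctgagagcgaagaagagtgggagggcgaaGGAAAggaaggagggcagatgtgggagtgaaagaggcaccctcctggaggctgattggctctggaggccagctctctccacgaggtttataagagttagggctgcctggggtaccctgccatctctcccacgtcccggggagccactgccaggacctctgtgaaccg
Acp5 (chr9:22130549-22130848, minus strand): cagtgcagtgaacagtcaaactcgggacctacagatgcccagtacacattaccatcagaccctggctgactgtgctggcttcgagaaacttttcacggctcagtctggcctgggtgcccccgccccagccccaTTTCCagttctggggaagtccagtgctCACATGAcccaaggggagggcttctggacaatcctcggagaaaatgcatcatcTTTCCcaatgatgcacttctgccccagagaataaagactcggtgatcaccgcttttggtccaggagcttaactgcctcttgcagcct
Ctsk (chr3:95498960-95499259, plus strand): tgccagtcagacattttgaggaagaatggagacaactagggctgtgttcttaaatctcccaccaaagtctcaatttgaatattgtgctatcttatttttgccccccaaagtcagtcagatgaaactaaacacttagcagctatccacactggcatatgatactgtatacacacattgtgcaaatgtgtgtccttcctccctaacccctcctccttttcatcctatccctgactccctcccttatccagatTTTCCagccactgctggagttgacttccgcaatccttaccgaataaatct
GGAAA was found in 5 of the 6 windows, and in 61.3% of all 32851 promoter windows of this length, so it was a common match. TCANGTG was found in 1 of the 6, the Acp5 window above, and in 14.3% of all windows. The PU.1 core GAGGAA, whose last 4 letters are the first 4 of GGAAA, was found 2 times in the Ctsk window (not in capitals), not in the other 5, and in 28.3% of all windows. The AP-1 site TGANTCA and the RUNX site ACCACA were in 0 of the 6, beside 7.81% and 16.8% of all windows. These are matches of letters in a window and show no binding.

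Dcstamp and Ocstamp encode the membrane proteins that let osteoclast precursors fuse. Dcstamp lies at chr15:39609214-39624334 on the plus strand and Ocstamp at chr2:165235680-165242336 on the minus strand (GRCm39). Dcstamp ran from 0.0228 to 1.46 CPM in TauT+/+ (median 0.224) and from 0.0484 to 1.81 CPM in TauT-/- (median 0.178). Its highest libraries were TauT-/- male 3, TauT+/+ male 3 at 1.46 CPM and TauT+/+ female 3 at 0.597 CPM, so the high values came from both genotypes. Between genotypes the log2 difference was -0.23 (SE 0.92, edgeR adjusted p = 0.909).

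Ocstamp had 0 counts in 7 of the 15 libraries, 3 of them TauT+/+ and 4 TauT-/-. It reached 4.16 CPM in TauT-/- male 3, 1.52 CPM in TauT+/+ male 3 and 0.321 CPM in TauT+/+ female 3, the same order of libraries as for Dcstamp. In the other 5 libraries with counts it lay between 0.0289 and 0.242 CPM. A count of 0 allows up to 3 counts, or 0.0342 to 0.0400 CPM in the TauT+/+ male libraries at 0 and up to 0.213 CPM in a shallow female-labelled one, so in those libraries Ocstamp was not detectable at this depth. Its log2 difference was 0.62 (SE 1.57, edgeR adjusted p = 0.846), and DESeq2 gave no adjusted p for it.

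Atp6v0d2 encodes a subunit of the proton pump that osteoclasts use to acidify bone and that also takes part in fusion (chr4:19876838-19922614, minus strand, GRCm39). The TauT+/+ male libraries 1 to 4 held 1.67, 0.912, 6.92 and 3.04 CPM, and TauT+/+ female 1 to 3 held 1.18, 2.99 and 6.79 CPM. The TauT-/- male libraries 1 to 4 held 1.40, 2.11, 16.4 and 4.43 CPM, and TauT-/- female 1 to 4 held 1.59, 6.53, 4.62 and 99.2 CPM. TauT-/- female 4 was the highest, TauT-/- male 3 came next, and the remaining TauT-/- libraries lay within the TauT+/+ range. The log2 difference was 1.82 (SE 0.94, edgeR unadjusted p = 0.0720, adjusted p = 0.255), and 0.62 without TauT-/- female 4, while DESeq2 gave no adjusted p. That library also held the highest summed macrophage level (17772 CPM) and the highest Itgb3 (167 CPM), the lowest summed stromal level (6375 CPM), and the highest level of any library for 19.3% of all genes tested, the largest such share. What part these had in the value was not tested. Among the 15 libraries TauT-/- female 4 ranked 3 for Mmp9, 4 for Acp5, 5 for Dcstamp, 6 for Ocstamp, 8 for Ctsk and 12 for Nfatc1. It held the lowest level of Oscar, a co-stimulatory receptor of osteoclasts, at 0.108 CPM from 2 counts.

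Acp5 encodes TRAP, the acid phosphatase whose stain marks osteoclasts, and which macrophages also make at low levels (chr9:22038023-22049355, minus strand, GRCm39). The TauT+/+ male libraries 1 to 4 held 0.751, 0.695, 53.5 and 1.43 CPM, and TauT+/+ female 1 to 3 held 0.729, 5.23 and 38.6 CPM. The TauT-/- male libraries 1 to 4 held 2.84, 4.68, 192 and 4.46 CPM, and TauT-/- female 1 to 4 held 2.82, 21.1, 4.05 and 30.9 CPM. All 8 TauT-/- libraries lay above the TauT+/+ median of 1.43 CPM, yet 2 TauT+/+ libraries held ranks 2 and 3 of the 15. The log2 difference was 0.98 (SE 1.25, edgeR adjusted p = 0.665). Without TauT-/- male 3 it turned to -0.96, and without the 3 highest libraries, a set chosen after these values were seen, it was 2.14 (edgeR adjusted p = 0.102).

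Ctsk encodes cathepsin K, the protease that cuts bone collagen, and which fibroblast-like stromal cells also make (chr3:95406178-95416732, plus strand, GRCm39). It was among the 2 highest of the 10 genes per kilobase and did not follow Acp5 down to low levels. It ran from 70.2 to 134 CPM in TauT+/+ (median 89.5) and from 37.6 to 144 CPM in TauT-/- (median 48.2). In TauT-/- the values were 41.2, 92.9, 144 and 49.7 CPM in male 1 to 4 and 37.6, 46.6, 43.1 and 84.2 CPM in female 1 to 4, so 5 of 8 lay below every TauT+/+ library and TauT-/- male 3 lay above all of them. Ctsk had a log2 difference of -0.51 (SE 0.27, edgeR unadjusted p = 0.0794, adjusted p = 0.269). The stromal marker list as a whole summed to 27419 to 46843 CPM in TauT+/+ and 6375 to 40607 CPM in TauT-/-, with 3 of 13 markers lower and 1 higher at an unadjusted p under 0.05, and its part in the Ctsk value was not tested. In bulk RNA, fewer cells of a type and less RNA per cell cannot be told apart.

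Mmp9 encodes gelatinase B, which osteoclasts, macrophages and neutrophils secrete (chr2:164780439-164797771, plus strand, GRCm39). It ran from 3.68 to 333 CPM in TauT+/+ (median 123) and from 5.94 to 476 CPM in TauT-/- (median 30.1). The 3 highest were TauT-/- male 3 at 476 CPM, TauT+/+ male 3 at 333 CPM and TauT-/- female 4 at 327 CPM. The means lay closer together than the medians, at 131 ± 122 CPM in TauT+/+ (SD, n = 7) and 123 ± 177 CPM in TauT-/- (SD, n = 8). Its log2 difference was -0.09 (SE 0.97, edgeR adjusted p = 0.966). The neutrophil list of 8 markers summed to 4.36 to 21.4 CPM in TauT+/+ and 1.80 to 55.1 CPM in TauT-/-. Its highest sums were in TauT-/- female 4 and, at 24.2 CPM, in TauT-/- male 3, both among the 3 highest for Mmp9. The next highest sum, 21.4 CPM, was in TauT+/+ male 2, which held the lowest Mmp9 of all (3.68 CPM). TauT+/+ male 3, second for Mmp9, summed to 9.68 CPM. S100a8 reached 51.4 CPM and Camp 21.1 CPM in some library, while the other 6 markers, S100a9 and Mpo among them, stayed at or below 0.187 CPM in every library. What part neutrophils had in the Mmp9 values was not tested.

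**Figure D3:**
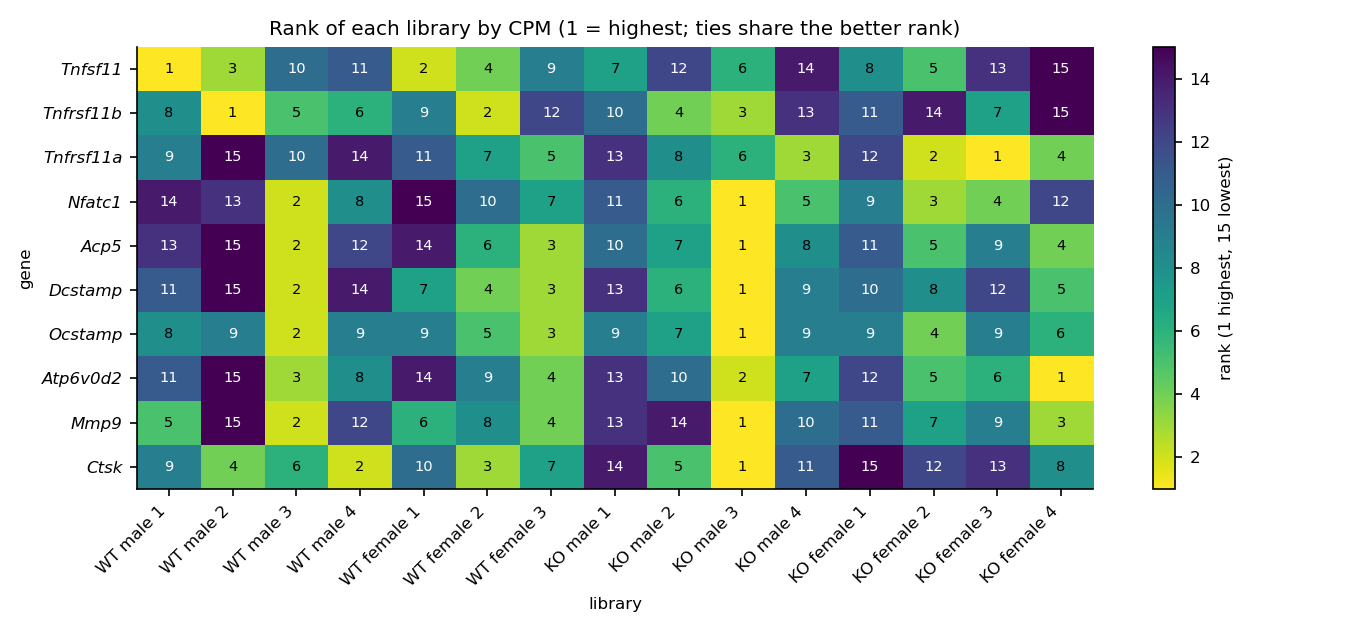
Rank of each library (columns; 1 highest, 15 lowest, by CPM, ties sharing the better rank) for each of the 10 genes (rows). TauT-/- male 3 holds rank 1 for Nfatc1, Acp5, Dcstamp, Ocstamp, Mmp9 and Ctsk, and TauT+/+ male 3 holds rank 2 for the first 5 of these, while Tnfsf11 ranks highest in other libraries.

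Several fusion and resorption genes were high in libraries of both genotypes. TauT-/- male 3 was the highest library for 6 of the 10 genes, while over all genes tested it was highest for 3.43%. The 3 libraries TauT-/- male 3, TauT+/+ male 3 and TauT+/+ female 3 were the 3 highest for Acp5, Dcstamp and Ocstamp, 3 of the 10 genes, and for 159 of 18263 genes (0.871%). Among 95 other pathway genes they were the 3 highest for Oscar, a co-stimulatory receptor of osteoclasts, and for Mapk8. Calcr, the calcitonin receptor of mature osteoclasts, had 20, 12 and 2 counts in these 3 libraries (0.204, 0.125 and 0.0918 CPM) and 0 in the others. The 2 counts of TauT+/+ female 3 lay below the level of 3 counts in that library (0.138 CPM). A count of 0 in a shallow female-labelled library allows up to 0.224 CPM. Calcr did not pass the filter on low counts and was not tested. Tnfsf11 was at 14.0, 7.27 and 7.76 CPM there, ranks 6, 10 and 9 of 15, and Tnfrsf11a at 31.5, 21.6 and 32.2 CPM, ranks 6, 10 and 5. The 3 libraries were picked out by these values, so the agreement is given without a test, and the summed macrophage level in them was 14770, 7939 and 8240 CPM. TauT-/- male 3 and TauT+/+ male 3 carry the same library number, were the closest pair (0.289 on the log2 scale) after the number 1 libraries, and deviated together from their group means over all genes tested (r = 0.63, across genes, which are not independent replicates). Whether they share a source beyond the number is not given in the labels.

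For 4 of the genes the 3 other genes of most similar order over the 15 libraries were named. For Tnfsf11 the highest Spearman rho was 0.954, shared by 4 genes, of which Erlec1, Fxyd1 and Mad2l2 come first by name. For Tnfrsf11b they were Septin2 (0.929), the integrin-linked kinase Ilk (0.904) and the calmodulin gene Calm3 (0.900). For Acp5 they were Zfp941 (0.921), the cell cycle inhibitor Cdkn1a (0.914) and Aplp1 (0.911), and for Ctsk the apolipoprotein Apod (0.896), Camk2n1 (0.882) and the chemokine Cx3cl1 (0.864). These are orders over 15 libraries that share depth and labelled sex, picked from all genes tested, and are given as a description.

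By labelled sex, the RANKL and OPG differences had the same sign in each, and several osteoclast genes did not. The labels of 3 libraries, TauT+/+ male 1, TauT-/- male 1 and TauT+/+ female 3, go against their sex genes. The last of these held the highest Acp5, Dcstamp and Ocstamp of the TauT+/+ female libraries. For Tnfsf11 the log2 difference was -2.10 (SE 1.27) in male-labelled and -1.66 (SE 1.32) in female-labelled libraries, and for Tnfrsf11b -0.83 (SE 0.62) and -1.09 (SE 0.67). For Acp5 it was 1.86 (SE 1.71) and -0.02 (SE 1.81), for Dcstamp 0.47 (SE 1.17) and -1.30 (SE 1.47), and for Ocstamp 1.44 (SE 1.92) and -0.98 (SE 2.64). The standard errors span these gaps, and no gene of the 10 passed the interaction test of the sex labels (edgeR adjusted p = 1.00 for each, and 0 of 10 at an unadjusted p under 0.05, against 1.62% of all genes). In male-labelled libraries 1 of the 10, Tnfrsf11a, had an unadjusted p under 0.05 (log2 difference 0.93, edgeR unadjusted p = 0.0475, adjusted p = 0.571), against 8.70% of all genes. In female-labelled libraries 0 of the 10 did, against 14.8%. Over all genes edgeR called 0 within either label after adjustment, with 1589 and 2702 genes at an unadjusted p under 0.05, while DESeq2 called 87 in the male-labelled and 425 in the female-labelled libraries and none of the 10 genes.

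**Figure D4:**
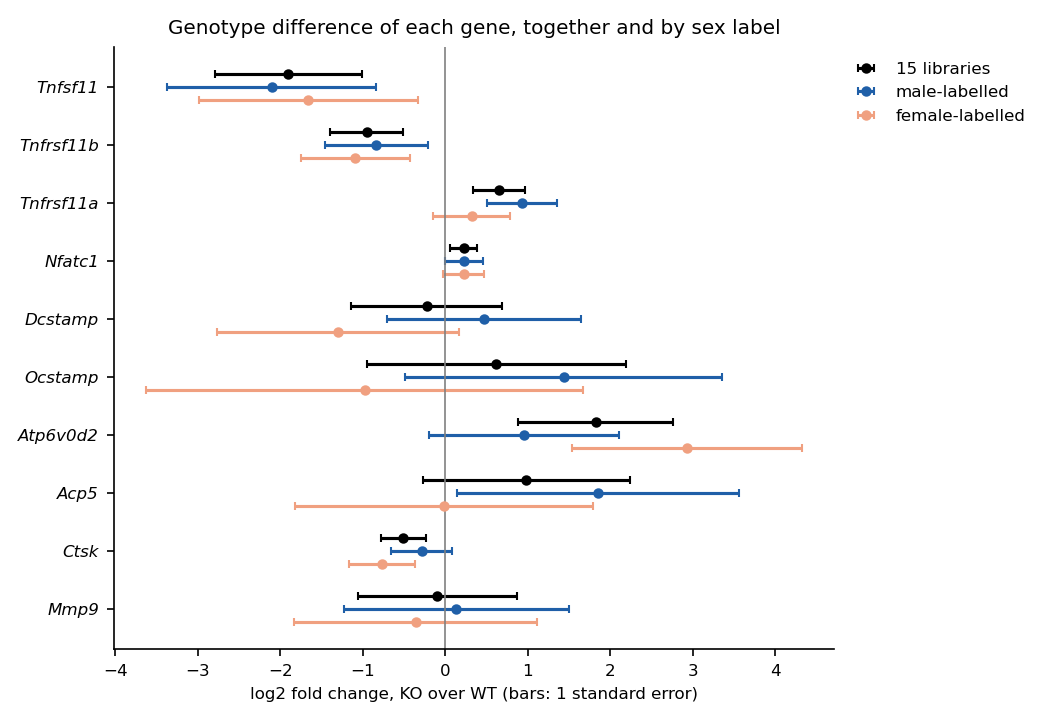
Log2 fold change of TauT-/- over TauT+/+ (horizontal axis) for each of the 10 genes, over the 15 libraries (black) and within the male-labelled (blue) and female-labelled (orange) libraries; points are edgeR estimates and bars 1 standard error. Tnfsf11 and Tnfrsf11b lie below 0 in all 3 contrasts, while Acp5, Dcstamp and Ocstamp lie on different sides of 0 in the sex labels, with bars that overlap.

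The other genes of the pathway were read from 7 lists of 96 genes, of which 95 were tested. Of these, 1 was called lower (Esr1) and 0 higher after adjustment by edgeR, beside 1.16% of all genes called in either direction. At an unadjusted p under 0.05 there were 5 lower and 33 higher, against 11.8% of all genes in each direction. DESeq2 called 2 lower and 16 higher, beside 11.5% of all genes in either direction. The median log2 difference of the 95 was 0.26, beside 0.00 over all genes. Without the number 1 libraries of the male label the unadjusted counts were 3 lower and 37 higher, without those of the female label 3 lower and 35 higher, and without the 3 libraries against their sex label 3 lower and 34 higher. Over all genes 9.12% to 11.3% were lower and 9.73% to 12.1% higher in these fits. With the mean log2 CPM of the macrophage markers as a covariate there were 2 lower and 8 higher, against 6.05% and 5.65% of all genes. Outside the stromal inducers no list held a gene past the adjusted threshold, so the genes with the smallest p of each are named.

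Co-stimulation and calcium signalling, the ITAM pathway that acts beside RANK, held 11 of 15 genes higher at an unadjusted p under 0.05 and a median log2 difference of 0.99. The 3 with the smallest p were Fcer1g, an ITAM adaptor (log2 difference 1.27, edgeR adjusted p = 0.0612), Pira2, an activating receptor (1.83, edgeR adjusted p = 0.0612), and Trem2, a lipid-sensing receptor (1.03, edgeR adjusted p = 0.0872). DESeq2 called 5 of the 15, and with the macrophage covariate 2 of the 15 were higher at an unadjusted p under 0.05. In the CSF1 pathway, which keeps precursors alive, 4 of 6 were higher at an unadjusted p under 0.05, with Sirpa (1.01, edgeR adjusted p = 0.0808), Pik3cd (0.77, edgeR adjusted p = 0.0835) and Grb2 (0.58, edgeR adjusted p = 0.0989) first by p, and 0 of 6 were with the macrophage covariate.

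RANK signal transduction, from TRAF6 to NF-kB, held 3 of 19 genes higher at an unadjusted p under 0.05, and its median was 0.14. These were Rela (0.39, edgeR adjusted p = 0.108), Tab2 (0.45, edgeR adjusted p = 0.109) and Ikbkb (0.26, edgeR adjusted p = 0.211). Attachment, acid secretion and resorption held 6 of 15 higher and a median of 0.41, with the lysosomal protease Ctsb (1.07, edgeR adjusted p = 0.0620), and the pump subunits Tcirg1 (0.65, edgeR adjusted p = 0.0883) and Atp6v1b2 (0.58, edgeR adjusted p = 0.109).

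Transcription activators held 4 of 12 genes higher and 1 lower at an unadjusted p under 0.05. The 3 with the smallest p were Esrra (0.42, edgeR adjusted p = 0.0807), Fos, the AP-1 subunit that RANK needs (-1.93, edgeR adjusted p = 0.109), and Ppargc1b (0.94, edgeR adjusted p = 0.112). Transcription repressors held 3 of 8 higher and 1 lower, with Zbtb7a (0.45, edgeR adjusted p = 0.0536) and Irf8 (1.08, edgeR adjusted p = 0.0912) first by p. Irf8 restrains NFATc1 and is also expressed in macrophages.

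The stromal inducers of RANKL and OPG held the called gene. Esr1, the oestrogen receptor alpha, which acts on OPG and RANKL in bone, ran from 4.17 to 17.6 CPM in TauT+/+ (median 9.49) and from 2.42 to 4.81 CPM in TauT-/- (median 3.32). TauT+/+ libraries were the 5 highest, and TauT+/+ male 3 and male 4 lay within the TauT-/- range. Its mean was 10.5 ± 5.98 CPM in TauT+/+ (SD, n = 7) against 3.39 ± 0.766 CPM in TauT-/- (SD, n = 8), and it fell by 1.62 on the log2 scale (SE 0.33, edgeR adjusted p = 0.0396). Leaving out single libraries kept the call in 4 cases of 15, and it was lost without the number 1 libraries of either sex label (edgeR adjusted p = 0.0796 and 0.114). Over the list of 20 there were 3 genes lower and 2 higher at an unadjusted p under 0.05, and the median was -0.05.

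**Figure D5:**
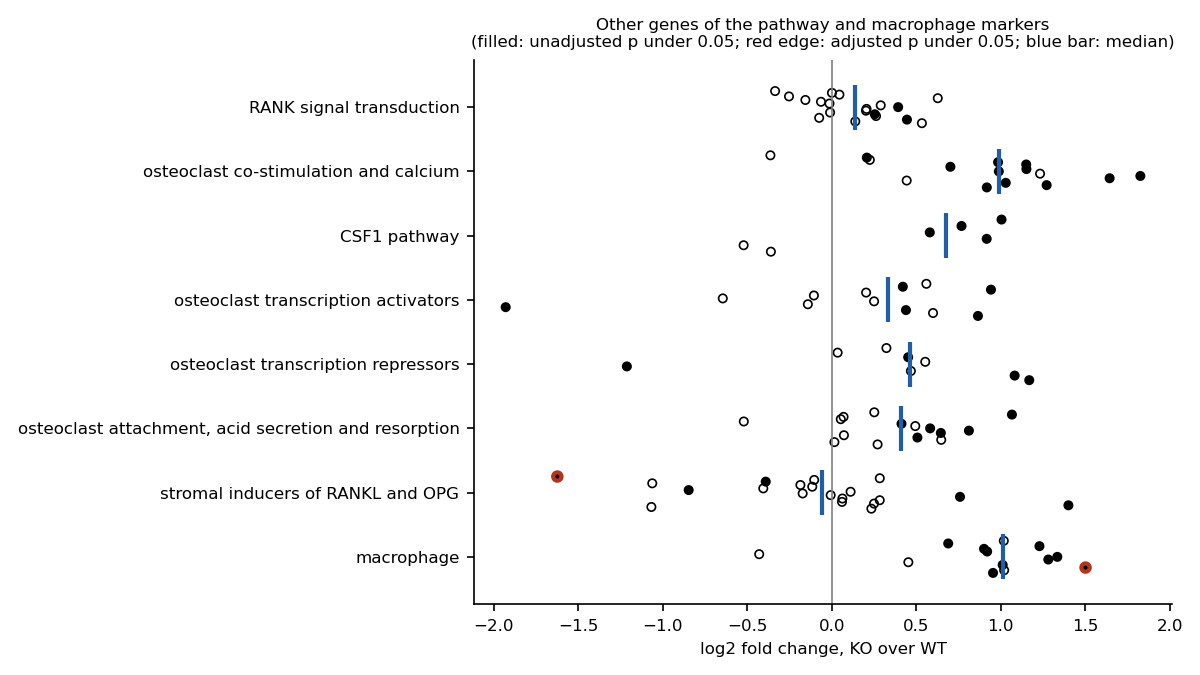
Log2 fold change of TauT-/- over TauT+/+ (horizontal axis) for each tested gene of 7 pathway lists and of the macrophage marker list (rows); filled points have an unadjusted edgeR p under 0.05, red edges an adjusted p under 0.05, and blue bars are list medians. Most genes of the co-stimulation, CSF1 and macrophage lists lie above 0, while the stromal inducers are spread about 0 with Esr1 at -1.62.

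Macrophage markers moved with the genotype label. Of 13 markers 12 had a log2 difference above 0, 1 below, and none was at 0 in every library. The lysosomal marker Cd68 was called higher (log2 difference 1.50, SE 0.33, edgeR adjusted p = 0.0432), and 9 of 13 were higher at an unadjusted p under 0.05. No marker was called by edgeR without the number 1 libraries of the male or of the female label, or without the 3 libraries against their sex label. In each of those fits 9 of 13 were higher at an unadjusted p under 0.05, against 9.73% to 12.1% of all genes. The summed level of the list was 1151 to 8240 CPM in TauT+/+ (median 6520) and 5317 to 17772 CPM in TauT-/- (median 13017). Csf1r, the CSF1 receptor of myeloid cells, ran from 119 to 711 CPM in TauT+/+ and from 420 to 1663 CPM in TauT-/-. Ptprc, which encodes the CD45 used for the depletion, was at 28.6 to 177 CPM in TauT+/+ and 112 to 379 CPM in TauT-/-. With the mean log2 CPM of the markers of the list as a covariate no gene of the table was called by edgeR. In that fit 6.05% of all genes were lower and 5.65% higher at an unadjusted p under 0.05. Of the 10 genes 3 were lower and 0 higher at an unadjusted p under 0.05 in that fit. These were Mmp9 (log2 difference -2.12, SE 0.83, edgeR adjusted p = 0.356), Ocstamp (-4.95, SE 2.04, edgeR adjusted p = 0.377) and Dcstamp (-2.01, SE 0.88, edgeR adjusted p = 0.399). Tnfsf11 and Tnfrsf11b, which passed that unadjusted level without the covariate, did not pass it with it, at -1.70 (SE 1.02, edgeR adjusted p = 0.542) and -0.41 (SE 0.52, edgeR adjusted p = 0.795). Acp5 was at -1.25 and Atp6v0d2 at 0.41. What part macrophages had in these values was not tested beyond that fit.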

How the data were processed

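The authors trimmed reads with fastp 0.23.1, aligned with STAR 2.7.9a to GRCm39, and used featureCounts (Subread 2.0.1) in its stranded mode on a GENCODE annotation. The deposited values are raw, whole-number counts per gene, not normalized, and every column matched a sample. The cDNA kit is not stated to keep strand, so a gene and an overlapping antisense gene may share counts. GRCm39 is a mouse build, although the study's text calls its reference human.

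Genotype was tested by the quasi-likelihood test of edgeR 4.0.16 under R 4.3.3 (TMM, filterByExpr on the 4 groups, terms for sex label and genotype), with p adjusted by Benjamini-Hochberg over the 18263 genes tested at a threshold of 0.05. Contrasts within a sex label and their difference used 1 term per group. CPM is counts over the TMM-scaled library size, and CPM per kilobase divides by the union of exons in GENCODE M39 on GRCm39. The study counted reads on an earlier GENCODE release. A union over all transcripts of a gene can be longer than each of them, which lowers the value per kilobase. Total counts ran from 12761107 to 101575070 per library, which limits the genes of few counts, and 3 counts were 0.0307 to 0.224 CPM. Intervals of this kind cover counting error only. The log2 ratio used a pseudocount of 0.5 CPM and an exact permutation within sex labels.

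The 10 genes, the pathway lists, marker lists and motifs were chosen with earlier results of these data known. The text names the 10 genes, list genes past the threshold (otherwise the 3 of smallest p per list, of which 1 is not reported here), and for 4 genes the 3 genes of most similar order. Oscar, Mapk8, Calcr and Itgb3, and the libraries set apart for their osteoclast products, were named after their values were seen. The alternatives were DESeq2 1.42.0, voom with sample weights in limma 3.58.1, other normalizations and filters, models without sex, with a replicate block or with the macrophage list, and sets of fewer libraries. The scripts were tested on simulated data. Python 3.11.15 and SciPy 1.17.1 gave the other values.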

Additional observations from a re-analysis of the deposited data

Results flagged for a closer look

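In groups of 4 libraries, a library was set apart where its gap to the nearest other library, as a share of the group's range, was above Dixon's 95% critical value for 4 values. There were 33 groups tested, and 10 were flagged, all by a high CPM of a gene. For normally distributed values chance alone flags about 1.65 of 33. The CPM values were not on a log scale and several genes had a long upper tail, so the 10 cannot be weighed against 1.65. The groups are not independent, since they hold the same libraries.

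TauT-/- male 3 was set apart by a high value of Acp5 (share 0.990), Ocstamp (0.983), Mmp9 (0.953) and Dcstamp (0.896). TauT+/+ male 3 was set apart by Acp5 (0.986), Ocstamp (0.981) and Dcstamp (0.945). TauT-/- female 4 was set apart by Atp6v0d2 (0.949) and Mmp9 (0.852), and TauT+/+ male 2 by Tnfrsf11b (0.838).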

How the results depend on the processing

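None of the 10 genes was called in any of the 30 alternative fits in which it was tested. Over all genes the counts of 108 lower and 103 higher became 1120 and 976 with DESeq2, 535 and 659 with voom, 42 and 32 with no filter, 200 and 115 with at least 10 counts in every library, 202 and 208 with no sex term, and 145 and 44 without the 3 libraries highest in osteoclast products, a set added after seeing the data. They were 0 and 0 with the macrophage covariate, within either sex label alone and without the 3 libraries against their sex label, and 0 and 2 or 0 and 7 without the male or female number 1 libraries of the genotypes. Without 1 library they ran from 4 to 766 lower and from 8 to 470 higher, both highest without TauT+/+ male 3. Within the labels the 0 calls became 87 (male) and 425 (female) with DESeq2. The cause of these shifts was not tested.

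Signs turned for 5 of the 10 genes, none of them called. With the macrophage covariate the log2 difference was -0.0744 for Tnfrsf11a, -4.95 for Ocstamp and -1.25 for Acp5. Dcstamp was 0.26 with voom, 0.0664 with the replicate block, 0.46 in male-labelled libraries alone and 0.37 without the 3 libraries highest in osteoclast products. Acp5 was -0.0364 in female-labelled libraries alone. Mmp9 was 0.0392 and 0.0353 without the male and the female number 1 libraries, 0.42 without the 3 libraries against their sex label and 0.13 in male-labelled libraries alone. Without 1 library they ran from -0.96 to 2.30 for Acp5, -1.43 to 0.95 for Dcstamp, -1.59 to 0.45 for Mmp9 and -2.66 to 2.51 for Ocstamp. Esr1 lost its call in 18 of 30 alternatives, and the ratio of RANKL to OPG kept its sign, from -1.70 to -0.87, in all 24 of its own.

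Same-numbered libraries of the genotypes deviated together under the male label, with correlations of 0.17 to 0.63 and the own number highest in 4 of 4, but not throughout under the female label, with -0.04 to 0.31 and the own number highest in 1 of 3. The numbers were therefore not taken as pairs over the whole design. The replicate block gave 102 lower and 69 higher genes and called none of the 10. Genes of few counts, Dcstamp and Ocstamp above all, are limited by depth in the female-labelled libraries.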
